A study of Mus musculus with 16 samples.

Results

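The cells described here are aortic fibroblasts that held transcripts of at least 2 of 4 genes, Dpp4, Smpd3, Dmkn and Lrrn4cl, and they are called Dpp4/Smpd3 fibroblasts below. A fibroblast was a cell with at least 5 unique molecular identifiers (UMIs, each standing for a captured RNA molecule) of Dcn and more of Dcn than of Myh11. The members were therefore chosen on measured UMIs, and 1405 of 36066 fibroblasts (3.9%) and of 50858 kept cells (2.76%) passed. Single-cell libraries had been made from the thoracic aorta of 16 mice, 1 library per mouse, covering the aortic root to the arch. The comparison was between Smad3+/+ controls and Smad3SmKO mice, in which floxed Smad3 is deleted from vascular smooth muscle cells (VSMCs) by tamoxifen from 6 weeks of age. All mice, controls included, were tamoxifen-treated males on the 129S6/SvEv strain and carried the Myh11-CreER transgene, whose Myh11 promoter drives the recombinase in smooth muscle and not in fibroblasts. There were 5 Smad3+/+ and 7 Smad3SmKO mice 18 weeks after deletion, and 2 of each genotype 10 weeks after deletion. The labels also gave 6 batches, a digestion of 30 or 60 min, and for some mice a Myh11-driven GFP tracer.

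Fibroblasts of the vessel wall lie mainly in its outer layer, the adventitia, where they make collagen, fibronectin and microfibrils. In many mouse tissues, fibroblasts with Dpp4, Pi16 and Cd55 occupy the outer connective tissue around vessels and organs and have been described as a progenitor pool for other fibroblasts. DPP4 is a cell-surface peptidase that trims dipeptides from the ends of chemokines and hormones. SMPD3 is a neutral sphingomyelinase, which releases ceramide from membrane sphingomyelin. Dermokine, encoded by Dmkn, is a secreted protein best known from the upper epidermis, and Lrrn4cl encodes a transmembrane protein about which little is known.

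In mm10, Dmkn (chr7:30763756-30781063, plus strand) lies between Sbsn (chr7:30751471-30756134) and Krtdap (chr7:30787896-30791097), both on the same strand, with 7621 bases from the end of Sbsn to Dmkn and 6832 bases from Dmkn to Krtdap. Sbsn encodes suprabasin and Krtdap the keratinocyte differentiation-associated protein, both secreted by epidermal cells. Neither was used by the rule, and transcripts of both were found with those of Dmkn in these fibroblasts. Some cells with Dmkn also held transcripts of Sbsn or Krtdap, and the 300 bases around the 3 starts (250 before and 50 from the start) are shown. The window of Dpp4 is added as that of the rule gene for which a promoter was at hand. Sequences are from RefSeq on GRCm38.p6. For Dmkn the first of 3 annotated starts is shown. Capitals mark matches on either strand to the AP-1 motif TGANTCA, the TATA box TATAAA, the CCAAT box CCAAT and the inverted repeat bound by EBF factors, none of which overlapped another.
Sbsn, chr7:30751221-30751520, plus strand: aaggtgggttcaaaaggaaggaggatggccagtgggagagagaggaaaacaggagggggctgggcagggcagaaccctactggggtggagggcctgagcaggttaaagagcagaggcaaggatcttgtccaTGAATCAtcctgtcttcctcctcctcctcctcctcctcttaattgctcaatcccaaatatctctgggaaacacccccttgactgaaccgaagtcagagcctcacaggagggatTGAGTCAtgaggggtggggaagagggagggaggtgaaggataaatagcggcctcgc
Dmkn, chr7:30763506-30763805, plus strand: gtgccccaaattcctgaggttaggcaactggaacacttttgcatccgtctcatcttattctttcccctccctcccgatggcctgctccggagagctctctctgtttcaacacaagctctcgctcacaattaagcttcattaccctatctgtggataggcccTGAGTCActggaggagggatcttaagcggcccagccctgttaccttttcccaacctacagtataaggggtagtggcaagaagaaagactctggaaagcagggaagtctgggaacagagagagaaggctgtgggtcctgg
Krtdap, chr7:30787655-30787954, plus strand: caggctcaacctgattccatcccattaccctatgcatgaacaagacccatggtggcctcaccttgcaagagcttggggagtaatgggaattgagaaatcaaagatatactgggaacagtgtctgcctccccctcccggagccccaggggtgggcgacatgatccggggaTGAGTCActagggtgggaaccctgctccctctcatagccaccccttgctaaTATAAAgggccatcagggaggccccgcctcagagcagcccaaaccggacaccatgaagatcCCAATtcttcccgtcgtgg
Dpp4, chr2:62412182-62412481, minus strand: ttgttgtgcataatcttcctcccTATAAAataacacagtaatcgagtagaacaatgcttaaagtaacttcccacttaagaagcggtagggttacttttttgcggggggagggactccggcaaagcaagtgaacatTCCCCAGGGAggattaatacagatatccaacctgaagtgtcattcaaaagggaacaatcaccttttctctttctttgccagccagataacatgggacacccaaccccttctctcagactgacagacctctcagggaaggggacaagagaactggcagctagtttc
The AP-1 motif stood at -119 and -6 from the start of Sbsn, at -89 in Dmkn and at -81 in Krtdap, and was not in the Dpp4 window. It was in 7.81% of 32851 promoters of this length. A TATA box stood at -30 in Krtdap and at -227 in Dpp4, and 13.6% of promoters held it. The CCAAT match at 32 in Krtdap lay past the start, and 37.4% of promoters held that short motif. The EBF match stood at -115 in Dpp4 and was in 0.904% of promoters. The GC box GGGCGG (35.7% of promoters) and the SMAD palindrome GTCTAGAC (0.213%) were in none of the 4 windows. These are matches of letters, and binding was not measured.

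Lrrn4cl (chr19:8850768-8853909, plus strand) was held by 1276 members, Smpd3 (chr8:106252548-106337988, minus strand) by 911, Dpp4 (chr2:62330073-62412231, minus strand) by 746 and Dmkn by 340. The most frequent combination was Smpd3 with Lrrn4cl, in 485 cells, followed by Dpp4 with Smpd3 and Lrrn4cl in 255, Dpp4 with Lrrn4cl in 241 and Dmkn with Lrrn4cl in 142. Dpp4 and Smpd3 were held together by 394 members (28%), so the name stands for the rule and not for a shared pair in every cell. All 4 genes were held by 42 cells. Just outside the rule were 4856 fibroblasts with exactly 1 of the genes, and just inside it 984 with exactly 2.

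The 4 genes were found with each other. They were chosen with earlier results of these data known, so the values below are a description and lend no support of their own. When the members were picked on the other 3 genes alone, Dpp4 was higher in the picked cells than in the remaining fibroblasts in 15 of 15 libraries, with a median of 75.85 against 2.573 CPM (UMIs of a gene scaled to the same total in every sum of cells). Smpd3 was higher in 14 of 14 libraries (182.9 against 10.34 CPM), Dmkn in 15 of 15 (40.4 against 0.7521 CPM) and Lrrn4cl in 13 of 13 (234.4 against 20.9 CPM). Deeper cells pass such a rule more easily, and members held more UMIs than other fibroblasts at the median in 15 of 15 libraries. With every cell thinned to 2000 UMIs and the libraries pooled, the order was unchanged for all 4: a UMI of Dpp4 was held by 23.3% of picked cells against 0.865% of the rest, of Smpd3 by 26.4% against 2.37%, of Dmkn by 6.52% against 0.59% and of Lrrn4cl by 37.1% against 3.96%. Single libraries did not all have this order. In Smad3SmKO replicate 6 of 18 weeks Smpd3 was in 0 of 64 picked cells and in 48 of 5441 others. Thinned to that depth, 387 fibroblasts (1.07%) still passed the rule.

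VSMC-type and endothelial-type cells rarely passed the rule. Of 8950 VSMC-type cells 2 held UMIs of at least 2 of the genes (0.0223%), and of 1309 endothelial-type cells 4 (0.306%), with median depths of 5812 to 21902 and 3182 to 14331 UMIs over libraries against 5896 to 20796 in members. After thinning, 0 cells of either type passed. The summed level of 10 fibroblast genes was 25142 to 43935 CPM in members and 24908 to 46258 CPM in other fibroblasts over the libraries. Dcn is among the 10 and was used to choose all these cells, so similar sums are partly set by that choice. By the limits given further below, 2 of the 10 genes were higher in members and 1 was lower. Over all genes 2.08% were higher and 2.72% lower. Pdgfra, a receptor that marks fibroblasts, was at 232.2 CPM in members and 226.7 CPM in others on average. Libraries shared few cell barcodes, with at most 11 in any pair.

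Several libraries stood apart. Kept cells per library ranged from 631 to 6497 and their median depth from 4528 to 21884 UMIs. Smad3SmKO replicate 7 at 18 weeks held only 196 fibroblasts and 0 members, which allows a share of up to 1.53% (3 cells, counting error only), and it could enter no comparison of levels. GFP went against the tracer label in 4 libraries: both Smad3SmKO libraries of 10 weeks were labelled as without a tracer but held GFP UMIs, and both Smad3+/+ libraries of 18 weeks with a 60 min digestion were labelled with one but held 0. The shares, the count of called genes and the fold changes of 4 named genes at 18 weeks are also given without the latter pair. Members themselves held 2 GFP UMIs in all, for a tracer driven in smooth muscle.

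The first question was whether these fibroblasts became more or less frequent when Smad3 was removed from the VSMCs. As a share of fibroblasts, the Smad3+/+ libraries of 18 weeks held 2.363%, 4.484%, 4.586%, 1.943% and 8.626% members. The Smad3SmKO libraries of 18 weeks ranged from 0% through a median of 3.067% to 5.886%. The groups overlapped over most of their range, and the highest control was 1 library, replicate 5. The means were 4.4% ± 2.65 (SD, n = 5) and 2.709% ± 1.907 (SD, n = 7), a difference of -1.691 percentage points, with p = 0.24 in an exact two-sided permutation test. Permuting within batches gave p = 0.361 over 36 arrangements (exact permutation test). Within batches the difference was -0.818 in batch 1, -1.519 in batch 2, -0.757 in batch 3 and 0.6015 in batch 6, while batch 5 held only Smad3SmKO libraries and batch 4 only 10-week libraries.

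**Figure D1:**
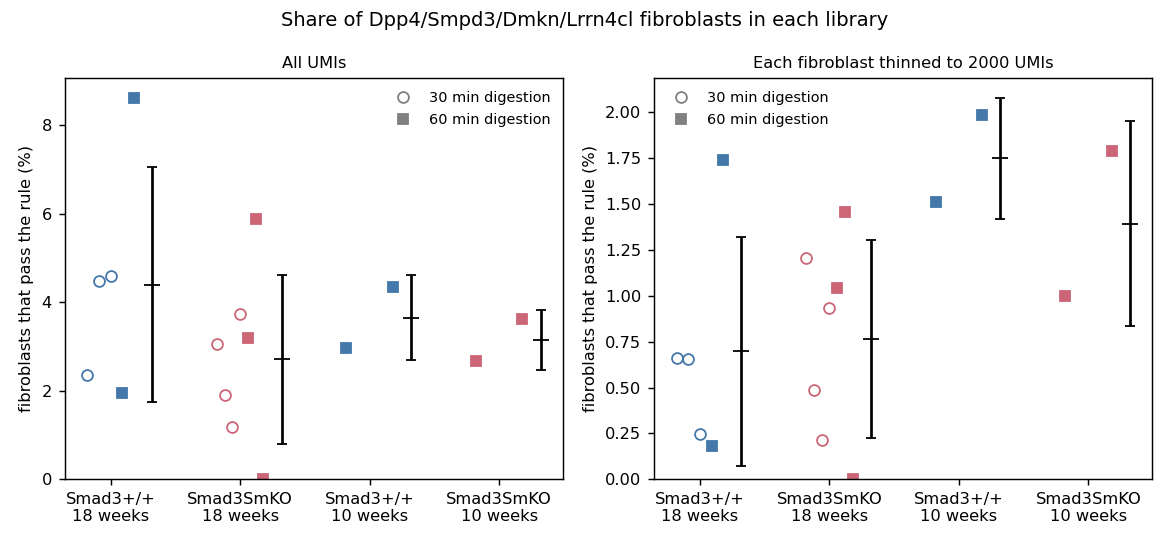
Share of Dpp4/Smpd3 fibroblasts among all fibroblasts (%, y axis) by genotype and time, 1 symbol per library, before (left) and after (right) every cell was thinned to 2000 UMIs. Bars are the mean ± SD of the libraries. At 18 weeks the genotypes overlap in both panels, and the order of the means (4.4% and 2.709% on the left) turns on the right (0.6962% and 0.7619%).

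Against all kept cells, Smad3+/+ aortas of 18 weeks had a mean share of 3.517% ± 1.913 (SD, n = 5), and Smad3SmKO aortas one of 2.01% ± 1.609 (SD, n = 7) (p = 0.174, exact permutation test). As a share of fibroblasts thinned to 2000 UMIs, the direction turned, with 0.6962% in controls and 0.7619% in Smad3SmKO (p = 0.843, exact permutation test). Among fibroblasts of at least 4000 UMIs, thinned to 4000, it did not turn, with 1.75% and 1.244% (p = 0.437, exact permutation test). The part of depth in this order was not tested. Without both 60 min Smad3+/+ libraries the difference was -1.102 percentage points of fibroblasts (p = 0.4, exact permutation test) and -1.239 of kept cells (p = 0.283, exact permutation test). The 30 min libraries alone differed by -1.34 (p = 0.171, exact permutation test, n = 3 and 4) and the 60 min libraries by -2.258 (p = 0.6, exact permutation test, n = 2 and 3). Permuting the 30 min libraries within batches gave p = 0.0833, the lowest that its 12 arrangements allow (exact permutation test). Leaving out Smad3+/+ replicate 5 moved the difference from -1.691 to -0.6349 (p = 0.583 within batches, exact permutation test). Leaving out Smad3+/+ replicate 4 moved it to -2.306, with p = 0.145, and p = 0.0417 within batches over 24 arrangements (exact permutation tests). At 10 weeks the shares were 2.972% and 4.341% in Smad3+/+ and 2.672% and 3.626% in Smad3SmKO, which overlapped. With all libraries no difference in frequency between genotypes was detectable, and the p within batches depended on single control libraries.

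Next, the members were described against all other fibroblasts of the same library, in the 15 libraries with at least 20 members. A gene counted as higher when its median log2 ratio over libraries (5 CPM added to each level) was at least 1 and it was higher in every library, and as lower in the same way at -1. Because the cells were picked on their transcripts, this is a description with no test. Of 8379 genes with an average of 10 CPM in either kind of cell, 174 were higher (2.08%) and 228 lower (2.72%), and the median ratio over all of them was 0.02. The rule genes had ratios of 4.37 for Smpd3, 4.22 for Dpp4, 3.88 for Dmkn and 3.61 for Lrrn4cl, which the rule itself sets.

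Among genes the rule did not use, Cd248 (chr19:5068078-5070682, plus strand), which encodes the stromal surface protein endosialin, ran from 250.7 through a median of 390.4 to 640.4 CPM in members and from 34.25 through 47.12 to 90.44 CPM in the other fibroblasts. The lowest member library was thus above the highest of the others, and the median log2 ratio was 3.07 ± 0.61 (SD, n = 15). Pi16 (chr17:29317680-29330593, plus strand), a secreted protease inhibitor that marks adventitial fibroblasts, ran from 2370 through 6373 to 12858 CPM in members against 1002 through 1334 to 1736 CPM, again with no overlap and a ratio of 2.31 ± 0.70 (SD, n = 15). Basp1, whose membrane protein is best known from growing nerve endings, had the highest ratio of all genes outside the rule, 3.57 ± 0.99 (SD, n = 15). Its level was 123.5 CPM ± 58.84 in members and 6.265 CPM ± 5.426 in others (SD, n = 15).

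Further genes with high ratios had varied functions. Ly6c1, a GPI-linked surface antigen, averaged 1417 CPM in members and 221.3 CPM in others (log2 ratio 2.97), and Anxa3, a calcium-dependent membrane-binding protein, 793.6 and 108.2 CPM (2.83). Pla1a, a phosphatidylserine-specific phospholipase, averaged 168.2 and 15.24 CPM (3.25). Cmah, the enzyme that converts one sialic acid to another, had a ratio of 2.97, and Duoxa1, the maturation factor of a dual oxidase, 3.12. Ptgs1, cyclooxygenase 1, had a ratio of 2.78. Those of Efhd1, Emilin2, Plac8, Cadm3, Adgrd1 and Dact2 lay between 2.54 and 2.94. Sema3c, a secreted guidance cue, and Pcsk6, a proprotein convertase, had ratios of 2.44 and 2.45. For each of these genes all 15 libraries had a ratio above 0.

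**Figure D2:**
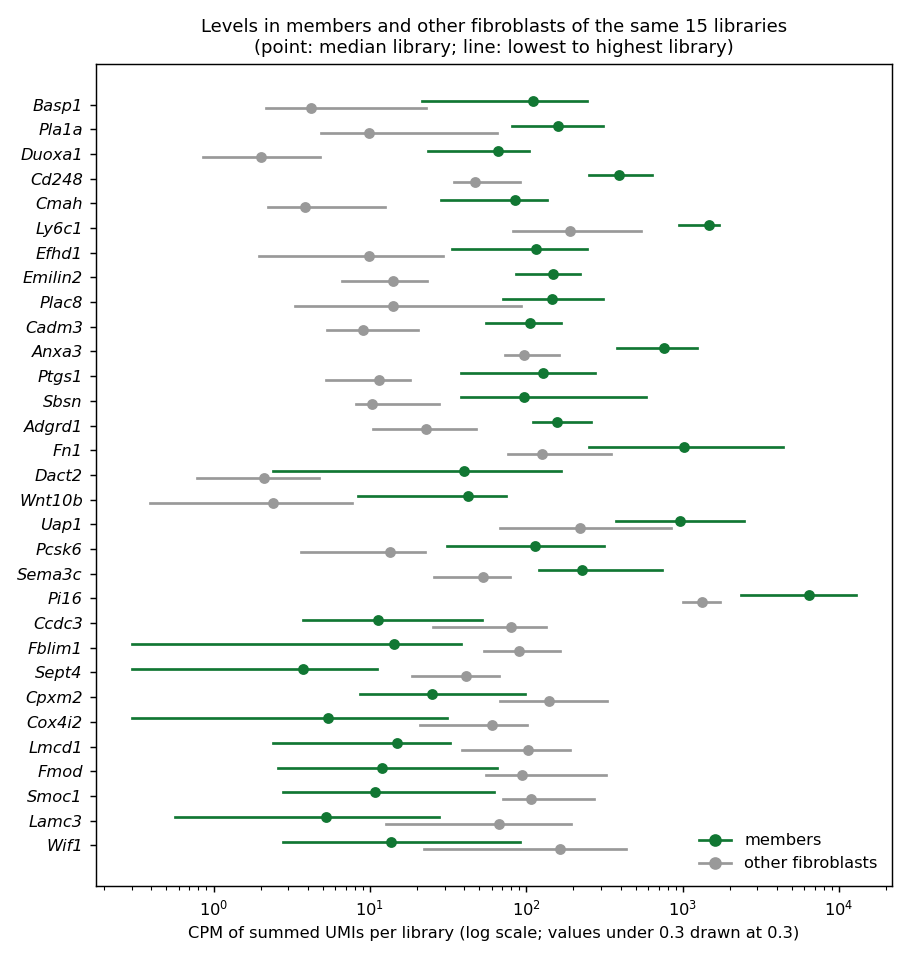
Levels of the named genes in Dpp4/Smpd3 fibroblasts (green) and in the other fibroblasts of the same 15 libraries (grey), as CPM of summed UMIs on a log axis, with the point at the median library and the line from the lowest to the highest. For Cd248 the member libraries start at 250.7 CPM and the others end at 90.44 CPM, while for Wif1 the ranges of 2.765 to 90.43 and 22.08 to 433.2 CPM overlap although each library has less in members.

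At the other end, Wif1, a secreted Wnt inhibitor, had the lowest ratio, -2.94, and lay between -5.24 and -0.63 in the 15 libraries. It ran from 2.765 through 13.59 to 90.43 CPM in members and from 22.08 through 164.2 to 433.2 CPM in other fibroblasts. Lamc3, a laminin chain (-2.88), Smoc1, a matrix-associated BMP modulator (-2.87), and Fmod, the collagen-binding proteoglycan fibromodulin (-2.74), followed. Lmcd1, Cox4i2, Cpxm2, Sept4, Fblim1 and Ccdc3 had ratios from -2.62 to -2.33. Mgp, the matrix Gla protein that inhibits calcification, averaged 4620 CPM ± 2318 in members and 21214 CPM ± 5019 in others (SD, n = 15).

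Of 27 measured genes of the progenitor-fibroblast list 18 were higher and 0 lower, with a median log2 ratio of 2.07 against 0.02 over all genes and a background of 2.08% of genes higher. Besides Pi16, Ly6c1, Anxa3 and Sema3c, these included Cd55, which protects cells from complement (2.30), Ly6a, the Sca-1 antigen (1.88), Ackr3, a scavenger receptor for CXCL12 (1.90), and Creb5 (2.07). Cd34 reached 1.00 in 15 of 15 libraries but fell just short of the limit before rounding, and Wnt2 had a ratio of 2.39 with 1 library the other way. Cd9 was at -0.74 and lower in 15 of 15 libraries, and Limch1 was at 0.37. The list of preadipocyte and parenchymal fibroblast genes had 0 of 17 higher and 3 lower, with a median of -0.59. The 3 were Col15a1 (-2.09), F3, tissue factor (-1.41), and Icam1 (-1.07), and Hsd11b1, which activates glucocorticoids, was at -1.74 with 1 library the other way. Both lists follow what is known of other tissues, and were drawn up with earlier results of these data known.

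Of 31 genes of interstitial collagens and elastic fibres 7 were higher and 2 lower, with a median of 0.05. Fn1, fibronectin, averaged 1221 CPM in members and 159.8 CPM in others (2.56), although 1 library, Smad3+/+ replicate 5 at 18 weeks, was at 4348 CPM. Fbn1, the microfibril protein fibrillin-1, averaged 1220 and 299.6 CPM (2.09), and Mfap5, which binds it, 4560 and 1458 CPM (1.78). Fbln2 (1.67), Efemp1 (1.62), Col14a1 (1.46) and Emilin2 (2.93) were also higher, and Col6a3 (-1.37) and Emilin1 (-1.16) lower. The fibrillar collagens Col1a1, Col1a2 and Col3a1 had ratios of -0.63, -0.16 and -0.09, and elastin, Eln, -0.86 with 3 libraries the other way. Among 25 proteoglycans and small matrix proteins 3 were higher, Tnxb (1.71), Clec3b (1.58) and Pcolce2 (1.53), and 2 lower, Fmod and Lum (-1.08).

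Of 19 basement-membrane genes 4 were higher and 3 lower. The laminin chains Lamc1 (1.48), Lama4 (1.42) and Lamb1 (1.15) and their linker Nid1 (1.76) were higher. The collagens Col15a1 (-2.09), Col4a6 (-1.56) and Col4a3 (-1.25) were lower, and Col4a1 was at -0.49. The median of the list was -0.31.

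In the TGF-beta and BMP list 4 of 22 measured genes were higher and 4 lower, with a median of -0.14. Among ligands, Bmp6 was higher (1.39), and Bmp4 (-1.36), Inhba, the activin A subunit (-1.62), and Gdf15 (-1.35) were lower. Tgfb1 was at -1.06 with 1 library the other way. Of the receptors and modulators, Tgfbr3, the co-receptor betaglycan (1.34), the procollagen protease Bmp1 (1.03) and Fstl1 (1.11) were higher, and Bambi, a decoy receptor (-1.37), was lower. Of 24 genes that TGF-beta is known to induce, 1, Fn1, was higher and 3, Tagln, Acta2 and Tgfbi, were lower, with a median of -0.45. Tagln and Acta2 also belong to the VSMC list below.

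The Wnt list held 1 higher and 4 lower genes of 19. Wnt10b, a ligand, averaged 41.6 CPM ± 19.84 in members and 2.785 CPM ± 1.763 in others (SD, n = 15), with a ratio of 2.48. The 4 lower genes were secreted modulators: Wif1, Frzb (-2.32), Rspo3, which enhances the signal (-2.06), and Dkk3 (-1.77). The inhibitors Sfrp1 and Sfrp2 were at -0.01 and 0.04.

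Lists of enzymes around the rule genes are set beside all genes, of which 2.08% were higher and 2.72% lower, with a median of 0.02. Of 24 measured sphingolipid genes only Cers6, a ceramide synthase, was higher (1.10) and 0 were lower, with a median of 0.06. Smpd1 and Smpd2, which also cleave sphingomyelin, were at -0.14 and -0.04. Among 12 dipeptidyl peptidases and substrates of DPP4, 0 were higher and 1 was lower, the chemokine Cxcl12 (-1.18), while Fap, the closest relative of DPP4, was at 0.62 and Ccl11 at 1.93 with 1 library the other way. Of 27 chemokines, cytokines and complement genes, Cd55 (2.30) and C3, the central complement protein (1.58), were higher, and Cxcl12 and Cxcl16 (-1.04) were lower.

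After the values were seen, 3 further lists were drawn up from the leading genes, so their counts lend no support of their own. UAP1 makes UDP-N-acetylglucosamine and UGDH makes UDP-glucuronate, the sugars from which hyaluronan is built. Of 16 measured genes of UDP-sugar and hyaluronan metabolism 4 were higher, Uap1 (1125 and 293.8 CPM on average, 2.48), Gfpt2 (2.08), Ugp2 (1.81) and Ugdh (1.80), and 0 were lower. The synthases Has1 and Has2 were at 1.02 and 1.08 with 2 and 3 libraries the other way. Of 12 genes of protein C and clotting, Thbd, thrombomodulin (2.23), and Plat, tissue plasminogen activator (1.41), were higher, and F3 (-1.41) and the thrombin receptor F2r (44 and 152.7 CPM on average) lower. Of the Ebf transcription factors, Ebf1 (1.80) and Ebf2 (1.55) were higher, and Ebf3 was at 0.44.

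Markers of other cells moved with the split, and their part in it was not tested. Of 9 measured VSMC genes 7 were lower in members, with a median of -1.69, and their summed level ran from 196.5 to 1686 CPM in members against 725.8 to 4353 CPM in other fibroblasts. Pericyte genes were lower for 3 of 6, with summed levels of 113.2 to 528.6 against 314.1 to 927.3 CPM. Leukocyte genes had a median of -1.18 over 4 measured, and their sum was 2.388 to 550.8 CPM in members against 36.36 to 315 CPM in others. Immediate early and heat-shock genes, which digestion can induce, were lower for 2 of 20, Hspa1a and Hspa1b, with a median of -0.55. Cells with at least 5 Myh11 UMIs or at least 2 genes of the endothelial, leukocyte, Schwann, pericyte or plasma cell list were then taken out. Immediate early and heat-shock genes were not used for this. It left 686 of 1405 members (48.8%) and 12062 of all 36066 fibroblasts, a smaller share, and 9 libraries with at least 20 members. There 154 of the 174 higher and 193 of the 228 lower genes were again past the rule, which then asked for the same sign in fewer libraries.

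Mesothelial cells, which line the outer surfaces of organs, can hold Dcn. Of the members 16 held UMIs of at least 3 of 13 mesothelial genes, a count made after the values were seen. In 14 of them, those outside Smad3SmKO replicate 6 of 18 weeks, Msln was at 1975 CPM, Upk3b at 1661 CPM and Pi16 at 667.3 CPM. Of the rule genes, Dpp4 was at 187.3 CPM and Lrrn4cl at 45.42 CPM over all 16, against 90.16 and 192 CPM over all members. Cells with at least 3 mesothelial genes were also found among the other fibroblasts, so part of them passed the rule and part did not. In Smad3+/+ replicate 2 of 10 weeks 8 were members and 0 were not. In Smad3SmKO replicate 6 of 18 weeks 2 were members and 10 were not. Without cells that held at least 3 mesothelial genes, 173 of the 174 higher and 227 of the 228 lower genes remained.

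Levels followed the number of rule genes held. Pi16 averaged 1063 CPM ± 322 (SD, n = 16 libraries) in fibroblasts with none of the 4 genes, 2522 CPM ± 687 (n = 15) with 1, 5824 CPM ± 2634 (n = 14) with 2 and 8118 CPM ± 2953 (n = 7) with 3. Cd248 went from 38.88 to 124.8, 377.6 and 459.6 CPM over the same steps, Anxa3 from 89.94 to 216.2, 633.9 and 1098 CPM, and Basp1 from 4.664 to 16.66, 85.94 and 214.7 CPM. Mgp went the other way, from 23767 to 17679, 5373 and 1971 CPM, as did Col15a1, from 223.8 to 200.5, 69.33 and 19.53 CPM. Lum went from 3471 to 943.3 CPM, and Dcn, which defines the fibroblasts, from 12858 to 11107 CPM. Cells with 1 gene were thus nearer to those with none than to those with 2 for Mgp and Col15a1. Their median depths were 7992, 10590, 12152 and 11485 UMIs, so depth and number of genes moved together up to 2 genes.

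**Figure D3:**
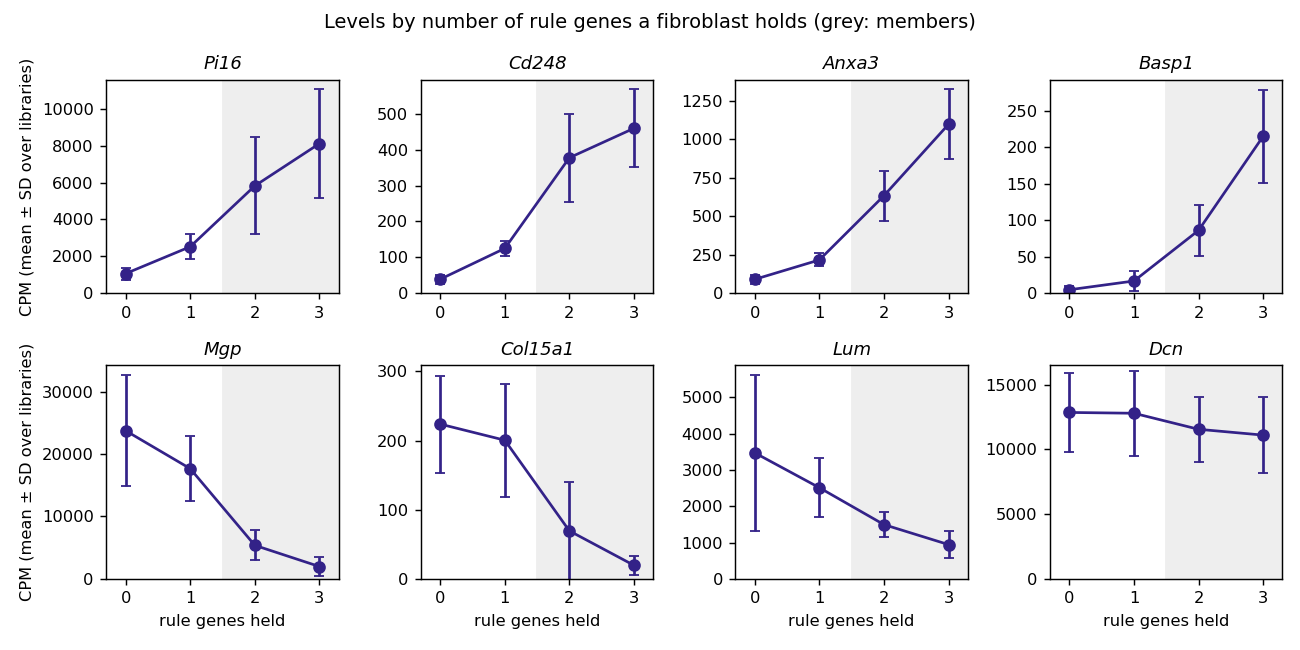
Mean CPM ± SD over libraries (y axis) of 8 genes in fibroblasts that hold 0, 1, 2 or 3 of the rule genes (x axis), with the members on grey. Pi16 goes from 1063 to 8118 CPM and Mgp from 23767 to 1971 CPM, while Dcn stays between 11107 and 12858 CPM.

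Other fibroblast states of the same aortas, 3 in number, were set by their own marker genes, and their overlap with the members was counted. Fibroblasts with Has1 numbered 2810, of which 324 were members (11.5% of that state), so 23.1% of members and 7.79% of all fibroblasts had that state. Of 13190 fibroblasts with Hsd11b1, 504 were members (3.82%), and the state was about as frequent in members (35.9%) as in all fibroblasts (36.6%). Of 1252 with Coch, 5 were members (0.399%), and the state held 0.356% of members and 3.47% of all fibroblasts. These shares moved with depth: with cells thinned to 2000 UMIs, the Has1 state held 4.39% of members and 2.28% of fibroblasts, the Hsd11b1 state 8.01% and 16%, and the Coch state 0% and 1.83%. For levels, the members were taken out of each state, so the values below are of state cells that were not members. Over the libraries Cd248 was at a median of 390.4 CPM in members, 127.9 CPM in the Has1 cells, 39.96 CPM in the Hsd11b1 cells and 0.6867 CPM in the Coch cells. Anxa3 had the same order, with 760.6, 188.6, 108 and 8.502 CPM, as did Pi16, with 6373, 2486, 1353 and 381.2 CPM. Uap1 was at 961.3 CPM in members and 832.4 CPM in the Has1 cells, with ranges of 375 to 2464 and 228.1 to 1651 CPM that overlapped. Wif1 was at 13.59 CPM in members, 16.61 and 21.62 CPM in the Has1 and Hsd11b1 cells, and 1824 CPM in the Coch cells. The states share libraries with the members, and the cells they share were left out of their levels. The values are therefore set side by side with no test.

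Sbsn and Krtdap, the neighbours of Dmkn, were found with Dmkn, Krtdap in a minor part of the cells only. Of 340 members with a Dmkn UMI, 294 held a UMI of Sbsn and 59 one of Krtdap. Of the 1065 members without, 229 and 15 did. Dmkn is itself a rule gene, so the members were partly picked for it. Krtdap ran from 1.484 through 17.38 to 98.07 CPM in members and from 0 through 0.09281 to 0.6578 CPM in other fibroblasts, with a ratio of 2.14 and no overlap. Sbsn ran from 38.3 through 96.71 to 581.6 CPM in members and from 8.18 through 10.29 to 27.63 CPM in others (ratio 2.70). Within the members, Sbsn was at 571.8 CPM in the 340 cells with a Dmkn UMI and 41.27 CPM in the 1065 without, and Krtdap at 101.9 and 5.479 CPM. Of those 340 cells 206 came from Smad3SmKO replicate 6 of 18 weeks. Without that library Sbsn was at 353.6 CPM in 134 cells with a Dmkn UMI and 37.82 CPM in 947 without, and Krtdap at 67.59 and 5.479 CPM. A Krtdap UMI was then held by 33 of the 134 cells and by 10 of the 947. A further neighbour, Tmem147, was at 0.11. An annotated antisense gene, Tmem147os, overlaps Sbsn, and whether reads were counted by strand is not given in the sources used here, so reads of that pair cannot be told apart.

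The members were not made up alike in all libraries. A Dmkn UMI was held by 6.849% to 24.42% of members in 14 libraries and by 63.58% in Smad3SmKO replicate 6 of 18 weeks, which also gave the most members, 324. A Smpd3 UMI was held by 46.43% to 91.3% of members in those 14 libraries and by 19.14% in that library. Of 252 members with Dmkn and no Smpd3, 184 came from it and 68 from the others, and of 822 with Smpd3 and no Dmkn, 40 and 782. This division was made after the values were seen. Sbsn was at 727.5 CPM in its Dmkn cells and 77.9 CPM in its Smpd3 cells, and at 362.1 and 25.21 CPM over the other libraries. Uap1 had the same order, with 2380 and 1618 CPM in that library and 1870 and 737.5 CPM in the others. Eln was at 20.13 CPM in the Dmkn cells and 95.6 CPM in the Smpd3 cells of that library. Among the other libraries with at least 20 Smpd3 cells, Eln in those cells was at 1894 CPM in Smad3+/+ replicate 5 and 1705 CPM in Smad3SmKO replicate 5 of 18 weeks and at 233.9 to 616.5 CPM in the rest, against 92.55 CPM over their Dmkn cells. Pi16 and Cd248 differed less between both kinds, with Pi16 at 4728 and 5308 CPM in that library and 6796 and 5409 CPM in the others.

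**Figure D4:**
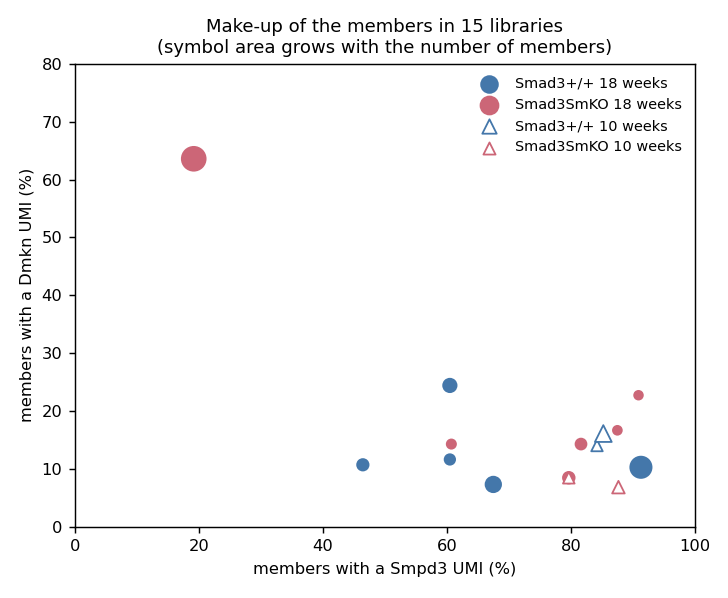
Percent of Dpp4/Smpd3 fibroblasts with a Smpd3 UMI (x axis) and with a Dmkn UMI (y axis), 1 symbol per library, colour by genotype, shape by time, area by number of members. Smad3SmKO replicate 6 of 18 weeks stands alone at 19.14% and 63.58%, and in the other 14 libraries the Dmkn share ends at 24.42%.

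Smad3+/+ replicate 5 of 18 weeks, the library with the highest share of members, stood apart in other genes. Car4, a membrane carbonic anhydrase, was at 273.5 CPM in its members and at 0 to 8.296 CPM in those of the other 14 libraries. Ltc4s, leukotriene C4 synthase, was at 493.9 CPM there and at 0 to 9.835 CPM elsewhere. Col6a5 was at 1138 CPM there, at 362.3 CPM in Smad3SmKO replicate 1 and 56.16 CPM in Smad3SmKO replicate 6 of 18 weeks, and at 0 to 2.471 CPM in the other libraries. In the other fibroblasts of the same library Car4 was at 5.523 CPM, Ltc4s at 15.64 CPM and Col6a5 at 302.8 CPM. Smpd3 and Fn1 were also highest in its members, or near it, at 913.8 and 4348 CPM. These genes were picked after their values were seen.

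The second comparison was between genotype labels within the members, with UMIs summed per library, edgeR's quasi-likelihood test, and batch in the model. At 18 weeks, 5 Smad3+/+ and 6 Smad3SmKO libraries had at least 20 members, and 0 of 8907 genes were called at an adjusted p under 0.05 (0%). An unadjusted p under 0.05 was reached by 284 genes (3.19%), 180 higher and 104 lower, and DESeq2 called 0 genes, with 148 at an unadjusted p under 0.05. In the other fibroblasts of the same libraries 0 of 14478 genes were called, with 564 at an unadjusted p under 0.05. Smad3SmKO replicate 5 was the only library of its batch with members, so it adds nothing to this estimate. Without both 60 min Smad3+/+ libraries 1 gene was called. Stricter choices of cells that left 1 or 2 residual degrees of freedom called more, such as 267 genes in cells with at least 3 rule genes and 219 in cells without markers of other cell types.

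The 5 genes with the lowest p at 18 weeks are given with their values. Chil1, a secreted chitinase-like protein of inflamed tissue, was at 10.43, 6.996, 4.426, 14.33 and 10.58 CPM in Smad3+/+ members and ran from 0 to 490.9 CPM in Smad3SmKO members, the highest being replicate 6. Its log2 fold change was 3.91 ± 0.71 (SE, n = 5 and 6; adjusted p = 0.674, edgeR), and 2.19 without that replicate. Without Smad3+/+ replicate 1 it was called, at 4.70 (adjusted p = 0.00104, edgeR). Within batches Chil1 went from -1.05 in batch 1 to 4.84 in batch 6. Lcn2, lipocalin 2, which sequesters bacterial siderophores, was at 98.18, 26.98, 43.37, 57.31 and 27.46 CPM in Smad3+/+ members. In Smad3SmKO members it had a mean of 261.4 CPM ± 126.5 (SD, n = 6) and a range of 54.36 to 434.8 CPM, with only the lowest library inside the control range. Its log2 fold change was 2.48 ± 0.52 (SE, n = 5 and 6; adjusted p = 0.838, edgeR), and in the other fibroblasts of these libraries it was 1.12 (adjusted p = 1, edgeR). The difference of both effects had an adjusted p of 1 (edgeR). Lcn2 in members was called in 4 of 28 alternatives: at 5.91 with at least 3 rule genes (adjusted p = 2.75e-33, edgeR), 3.66 with the thinned rule (9.11e-05), 3.34 without cells holding other markers (2.53e-06) and 2.47 with no filter on low counts (3.41e-28). The first 3 of these left 1 or 2 residual degrees of freedom, and over all 28 its adjusted p reached 1 and its direction was the same.

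Usp18, which removes the ubiquitin-like ISG15 and is induced by interferon, was at 11.29, 15.99, 9.737, 16.72 and 13.73 CPM in Smad3+/+ members and at 20.83 to 36.12 CPM in the 6 Smad3SmKO libraries. The groups did not overlap, but Usp18 was picked for its low p, and how many other genes separated so was not counted. Its log2 fold change was 1.02 ± 0.24 (SE, n = 5 and 6; adjusted p = 1, edgeR), with differences from 0.30 to 1.21 within batches 1, 2, 3 and 6. At 10 weeks it was at 19.04 and 18.33 CPM in Smad3+/+ and 13.23 and 7.065 CPM in Smad3SmKO members, the opposite order. Tnfaip2, an endothelial and myeloid protein induced by TNF, had a log2 fold change of 1.30 ± 0.27 (SE, n = 5 and 6; adjusted p = 0.838, edgeR), which was 0.76 without replicate 6. Serpinb2, plasminogen activator inhibitor 2, was at 0 in 4 of 5 Smad3+/+ libraries and in 4 of 6 Smad3SmKO libraries, and at 45.05 CPM in Smad3SmKO replicate 6. Without both 60 min Smad3+/+ libraries the log2 fold change was 2.35 for Chil1, 2.00 for Lcn2, 0.76 for Tnfaip2 and 1.12 for Usp18, with adjusted p from 0.586 to 0.828 (edgeR). No gene of the pathway lists was called at 18 weeks. In the progenitor list 20 of 28 tested genes had a fitted value above 0 and 8 below, and the median was 0.11 on the log2 scale. In the list of TGF-beta targets 11 of 24 were above 0 and 13 below, with a median of -0.09, against 0.00 over all genes. In the preadipocyte and parenchymal list 4 of 17 were lower at an unadjusted p under 0.05, with a median of -0.44.

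**Figure D5:**
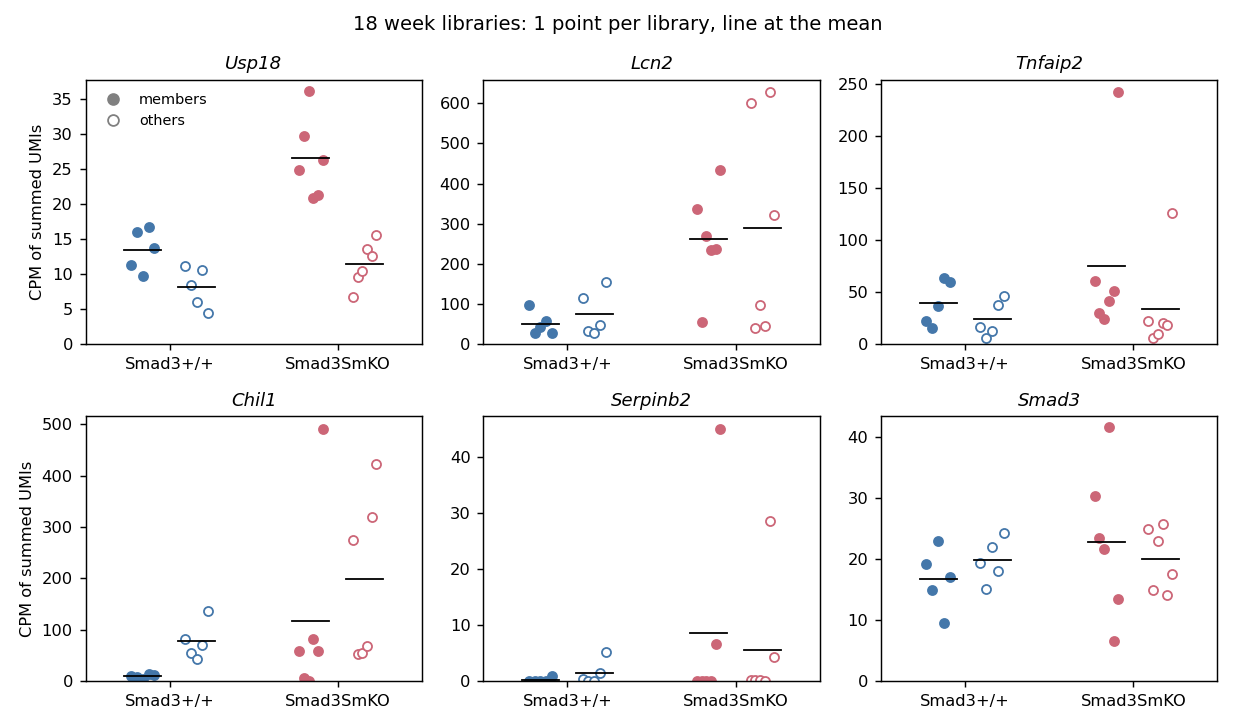
CPM of summed UMIs (y axis) of 6 genes at 18 weeks in Dpp4/Smpd3 fibroblasts (filled) and other fibroblasts (open), 1 point per library with a line at the mean, by genotype. Chil1 and Serpinb2 have 1 high Smad3SmKO library, and Smad3 overlaps. Usp18, picked for its low p and not called, does not overlap between genotypes in members (9.737 to 16.72 against 20.83 to 36.12 CPM).

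Of the markers of other cells 0 were called between genotypes at 18 weeks, but some reached an unadjusted p under 0.05. Over all 8907 genes tested 180 were higher and 104 lower at that p. Of 4 leukocyte genes tested 3 were higher in Smad3SmKO members at an unadjusted p under 0.05. Over the 4 the median log2 fold change was 2.08, and the summed level of the 10 leukocyte genes was 2.388 to 61.96 CPM in Smad3+/+ members and 10.42 to 550.8 CPM in Smad3SmKO members. Among the pericyte genes, 2 of 5 tested were higher at that p. Fitted values of the 5 were above 0 for 3 and below for 2, with a median log2 fold change of 0.01. Of 11 mesothelial genes tested 2 were lower at that p, with summed levels of 15.49 to 322.4 CPM in Smad3+/+ and 2.765 to 62.15 CPM in Smad3SmKO members. Their part in the differences above was not tested.

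At 10 weeks 2 of 8907 genes were called (0.0225%), with 292 at an unadjusted p under 0.05 (3.28%) and 3 genes called by DESeq2. Both calls depended on the libraries used, and 0 genes were called when Smad3+/+ replicate 1 or 2 or Smad3SmKO replicate 2, 3 or 4 of 18 weeks, or any library of 10 weeks, was left out. Wif1 was at 7.142 and 5.391 CPM in Smad3+/+ members and at 90.43 and 77.72 CPM in Smad3SmKO members. These did not overlap, which 2 libraries against 2 often give, and how many other genes separated so was not counted. The log2 fold change of Wif1 was 3.77 ± 0.57 (SE, n = 2 and 2; adjusted p = 0.0464, edgeR). In the other fibroblasts of the same libraries it was at 22.08 and 223.2 CPM in Smad3+/+ and 142.8 and 164.2 CPM in Smad3SmKO, which overlapped. Wif1 in members was called in 11 of 22 alternatives, with adjusted p from 3.41e-09 to 0.998 (edgeR or DESeq2), and its direction was the same in all 22. Msln, the mesothelial surface protein mesothelin, was at 99.98 and 111.1 CPM in Smad3+/+ members and at 0 in both Smad3SmKO libraries, at least 31.5-fold lower against a floor of 3 UMIs over the group (adjusted p = 0.0464, edgeR). Those UMIs went with 9 members that held at least 3 mesothelial genes, all in Smad3+/+, and without such cells 0 genes were called at 10 weeks, where Wif1 had an adjusted p of 0.0877 (edgeR). The summed level of the 13 mesothelial genes was 233.3 and 759.1 CPM in Smad3+/+ members and 11.78 and 22.06 CPM in Smad3SmKO members of 10 weeks.

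Chad, chondroadherin, was at 0 in both Smad3+/+ libraries of 10 weeks and at 92.63 and 96.56 CPM in Smad3SmKO members, at least 42.5-fold higher against the same floor (adjusted p = 1, edgeR). For the gene model 1500015O10Rik the log2 fold change was 3.98, and for Ppp6r1 -2.48 (adjusted p = 1 for both, edgeR). The change of the genotype effect from 10 to 18 weeks was called for 0 of 8907 genes (0%), with 272 at an unadjusted p under 0.05 and 2 called by DESeq2. For this comparison the libraries of 10 weeks were all of 1 batch, so time and batch cannot be told apart.

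The genotype effect in members differed from that in other fibroblasts for 4 of 14186 genes (0.0282%), with 467 at an unadjusted p under 0.05, and with 60 called when Smad3+/+ replicate 2 of 10 weeks was left out and 42 without its replicate 1. Each of the 4 calls was lost when any of 2 or 3 single libraries was left out. Igkc, an antibody light chain that marks plasma cells, had a difference of 3.34 (log2, adjusted p = 0.000202, edgeR), and was at 853.5 CPM in the other fibroblasts of Smad3+/+ replicate 5 and at most 28.92 CPM in those of the other libraries compared. Without Smad3+/+ replicate 5 the difference was 0.02 and without Smad3SmKO replicate 6 it was -2.26 (adjusted p = 1 for both, edgeR). Car4 had a difference of -5.98 (adjusted p = 0.00735, edgeR), which was 3.58 without Smad3+/+ replicate 5 and 3.80 without Smad3SmKO replicate 6. Without cells holding markers of other types neither was called, with Igkc at 0.14 (adjusted p = 1, edgeR) and Car4 at -4.53 (adjusted p = 0.0621, edgeR). Serpinb2 had 5.83 (adjusted p = 0.0122, edgeR) and 0.47 without Smad3SmKO replicate 6. Its call was also lost without Smad3+/+ replicate 5 (7.79, adjusted p = 0.425, edgeR) and without Smad3SmKO replicate 5 (5.84, adjusted p = 0.133, edgeR). Chil1 had 2.66 (adjusted p = 0.0122, edgeR), with 3.91 in members and 1.03 in others, and 1.66 without Smad3SmKO replicate 6 (adjusted p = 0.557, edgeR). Its call was also lost without Smad3+/+ replicate 2 (2.50, adjusted p = 0.139, edgeR) and without Smad3SmKO replicate 4 (2.47, adjusted p = 0.16, edgeR).

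Smad3 itself (chr9:63646767-63757994, minus strand) was at 19.11, 14.99, 23.02, 9.552 and 17.07 CPM in Smad3+/+ members of 18 weeks and at 6.557 to 41.66 CPM in the 6 Smad3SmKO libraries, which overlapped throughout. The log2 fold change was 0.42 ± 0.28 (SE, n = 5 and 6; adjusted p = 1, edgeR). In VSMC-type cells, where the gene is deleted, its mean was 7.438 CPM in 5 Smad3+/+ libraries and 9.323 CPM in 7 libraries labelled Smad3SmKO, so counts at the 3' end of the transcript did not mark the deletion, and in these files the genotypes rest on the labels. The feature Sm3_intact, which the files list without a description, held 0 UMIs in members. The study's separate measurements of Smad3 protein and RNA are not analysed here. The libraries count transcript ends, and exons were not separated here.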

How the data were processed

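The deposited matrices of the 16 thoracic aorta libraries hold raw UMI counts by gene and barcode. The authors had aligned the reads to mm10 with Cell Ranger. The submitters' processing notes name Cell Ranger 6 and Seurat 4, and the matrix headers Cell Ranger 4.0.0. Barcodes were kept between 600 and 6000 genes and between 2000 and 50000 UMIs, with mitochondrial transcripts below 25%. These limits were the only step against doublets. Deposited UMIs per library ranged from 12539539 to 52843031, and UMIs per cell limit the precision for low genes. Intervals and floors cover counting error only.

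Groups came from the genotype and time labels, and replicate numbers follow accession order and pair nothing. The members and gene lists were chosen with earlier results of these data known, and the UDP-sugar, clotting, Ebf and chromosome 7 lists after their values were seen. UMIs were summed per library for members and for other fibroblasts where there were at least 20 members. CPM relate to the total UMIs of those sums. Description ratios used 5 CPM added, a mean of at least 10 CPM and a log2 limit of 1. Genotype was tested with edgeR 4.0.16 (quasi-likelihood, TMM, batch as covariate, Benjamini-Hochberg adjusted p under 0.05) in R 4.3.3 with limma 3.58.1, and DESeq2 1.42.0 as an alternative. Shares were compared by exact permutation of libraries. Named genes were the rule genes, Cd248, Smad3, the 20 highest and 10 lowest ratios past the rule without gene models, called genes or else the 5 lowest p-values per genotype comparison, and up to 6 members of a list. Other genes named were chosen after their values were seen. Cells were thinned to 2000 UMIs, or 4000 as an alternative. Further alternatives were other normalizations, filters, stricter rules and leaving out libraries. The fits were tested on simulated data. Tables were handled in pandas 2.3.3 and numpy 2.4.6 (Python 3.11.15), permutations ran in scipy 1.17.1 and plots in matplotlib 3.10.9.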

Additional observations from a re-analysis of the deposited data

Results flagged for a closer look

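Dixon's criterion flags about 1 in 20 groups by chance when values are independent and normally spread. That rate does not hold here, since many genes were named for their values and some were at 0 in most libraries. In 21 of 108 groups of 5 to 7 libraries a single library lay far from the others by this criterion. In Smad3SmKO members of 18 weeks, replicate 6 was such a library for the percent of members with Dmkn (63.58%) and, in CPM, for Dmkn (449.6), Sbsn (581.6), Krtdap (98.07), Chil1 (490.9), Tnfaip2 (242.1), Serpinb2 (45.05), Msln (8.268) and Igkc (18.25). Fmod stood apart in replicate 3 (65.01 CPM) and Ccdc3 in replicate 4 (52.08 CPM). In Smad3+/+ members of 18 weeks, replicate 5 stood apart in CPM for Smpd3 (913.8), Fn1 (4348), Car4 (273.5), Igkc (47.5) and Serpinb2 (0.9277). Replicate 1 did so for Dmkn (137.3 CPM), Chad (108.6 CPM) and the percent of members with Dmkn (24.42%). Replicate 4 did so for Lamc3 (27.46 CPM) and Ccdc3 (34.62 CPM).

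The genotype effect at 18 weeks differed between members and other fibroblasts, on the log2 scale and by edgeR's test of the difference, for Igkc (3.34), Car4 (-5.98), Serpinb2 (5.83) and Chil1 (2.66). Each call was lost when any of 2 or 3 single libraries was left out. GFP transcripts were found in both Smad3SmKO libraries of 10 weeks labelled as without a tracer, with 246 and 165 UMIs in kept cells, against 0 in the 18-week libraries labelled without one.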

How the results depend on the processing

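The percent of tested genes called between genotypes moved with the setting. At 18 weeks (0%) it was 0.474% with no filter on low counts, 0.101% in the 60 min libraries alone, 0.0886% with at least 50 members, 3.89% with at least 3 rule genes, 2.45% with the thinned rule, 3.52% without cells holding other markers and 0.0126% without both 60 min Smad3+/+ libraries. At 10 weeks (0.0225%) it was 0.24% with no filter, 0% with no batch term, 0.233% with at least 3 rule genes, 0.168% with the thinned rule, 0.0805% without other markers and 0% without mesothelial-gene cells. For 18 against 10 weeks (0%) it was 0.0225% with DESeq2, 0.24% with no filter, 0.0332% with at least 50 members, 1.11% with at least 3 rule genes, 1.46% with the thinned rule, 1.14% without other markers and 0.0126% without both 60 min libraries. For members against others (0.0282%) it was 2.16% without other markers. The stricter rules left 1 to 3 residual degrees of freedom, and the cause of these changes was not tested. Leaving out 1 library gave 0% to 0.0236%, 0% to 0.0237%, 0% to 0.0118% and 0.0214% to 0.393% in the 4 comparisons.

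The share difference at 18 weeks turned when cells were thinned to 2000 UMIs (0.06571 of fibroblasts, 0.001452 of kept cells, in percentage points) and otherwise kept its sign, from -2.306 to -0.6349 and from -2.017 to -0.7958 with 1 library left out. Genes past the rule were 114 higher and 104 lower with 20 CPM added, and lower genes were 108 at 50 CPM or more, 407 with at least 3 rule genes and 405 with the thinned rule. With 1 library left out they were 171 to 189 and 228 to 265. Single genes turned as follows: 1500015O10Rik at 10 weeks was -0.34 with at least 3 rule genes, and Smad3 at 18 weeks was -0.06 in the 60 min libraries, -0.08 with at least 50 members and -0.89 with at least 3 rule genes. With 1 library left out, the difference for Igkc ran from -2.26 to 3.42 and for Car4 from -6.77 to 3.80. Of 840 values of 35 described genes, 806 moved by less than the spread, 34 by more, and 0 turned. No paired analysis was possible because replicate numbers follow accession order and tie no mice across genotypes. Batch, which does hold libraries of both genotypes, was a term of the model.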
